A study of Rattus norvegicus with 18 samples.

Results

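The genes described here are 10 antioxidant genes, several of them targets of the transcription factor NRF2, measured in rat lung after clamping and reperfusion. They were chosen by name: Hmox1, Txnrd1, Nqo1, Gclc, Gclm, Cat, Sod1, Sod3, Gpx3 and Prdx1. Of the 10 listed genes, 9 had probe sets of their own on the array, 11 probe sets in all, out of 15923 probe sets. Prdx1 was reached only by a probe set annotated to both Prdx1l1 and Prdx1, so its value is given as that of the shared probe set and it is not counted among the 9. All 11 probe sets passed the filter on low signals, which left 10533 probe sets and, with the probe set of highest mean for each gene, 7728 genes.

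The samples were 18 lungs of male Sprague-Dawley rats, each hybridised to its own Affymetrix rat 230A array. In anaesthetised and ventilated rats the hilum of the left lung was clamped in situ for 2 h, warm, and the lung was then reperfused for 30 min (3 lungs) or 3 h (3 lungs). The unclamped right lungs of rats at the same times gave 3 arrays at 30 min and 3 at 3 h. Control arrays came from normal lungs of 6 other rats, taken directly after sacrifice. The control rats had no matched anaesthesia, ventilation or thoracotomy according to the labels, no group was clamped without reperfusion, and the clamp was always on the left. Operated and control lungs therefore differ in surgery and ventilation as well as in ischaemia, and these, like the side and the clamp, cannot be told apart. The arrays measured RNA of whole lung tissue, in which fewer cells of a type and less RNA per cell cannot be told apart.

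NRF2, encoded by Nfe2l2, is held in the cytoplasm by KEAP1, which directs it to degradation. Oxidants and electrophiles modify KEAP1, NRF2 then reaches the nucleus, pairs with a small MAF protein and binds antioxidant response elements in front of genes for haem breakdown, glutathione synthesis, thioredoxin reduction and quinone detoxification. Catalase and the superoxide dismutases remove hydrogen peroxide and superoxide and are abundant in lung without induction. Reperfusion of an ischaemic organ is known for a burst of reactive oxygen species, produced among others by xanthine oxidoreductase and by the NADPH oxidase of phagocytes.

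The promoter windows are shown because the response element is the sequence by which NRF2 reaches its targets. RefSeq windows of the GRCr8 build, from 250 bases before to 50 bases after an annotated start, were available for 8 of the 10 listed genes, 9 windows in all. Both strands were searched for the core of the element, TGACNNNGC, which occurred in 12.1% of the 33469 windows in the table. It was found for 3 listed genes, Gclm, Prdx1 and Txnrd1, in each case on the strand opposite to the gene. The stretches are written on the gene's strand, with the match in capitals.
Gclm, chr2:213031943-213031991, plus strand, match starting 172 bases before the start: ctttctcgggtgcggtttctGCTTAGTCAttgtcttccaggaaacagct
Prdx1, chr5:135383751-135383799, plus strand, match starting 135 bases before the start: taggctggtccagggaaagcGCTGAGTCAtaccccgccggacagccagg
Txnrd1, chr7:22755954-22756002, minus strand, match starting 78 bases before the start: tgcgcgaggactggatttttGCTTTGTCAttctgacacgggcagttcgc
The Prdx1 match overlaps an AP-1 site, TGACTCA, a motif present in 4.63% of windows. The Txnrd1 match lies in the window of 1 of the 2 annotated starts of that gene. A match is a description of the letters in these windows only. Of these 3 genes, Txnrd1 was higher in 3 of the 4 operated groups and Gclm passed the test in none, as given in the following paragraphs.

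Values are signals on a linear scale, and differences are limma estimates of log2(signal + 25) with their standard error (SE) from 1 fit over all 18 arrays, so the fold of a low signal is understated. A gene is called higher or lower where the Benjamini-Hochberg adjusted p over all probe sets tested is under 0.05. The arrays had median signals from 231.9 to 283.1. The ratio of 3' to 5' beta-actin signal, a sign of RNA integrity, was 4.81 for left 30 min replicate 1, 2.93 for right 30 min replicate 3 and 2.30 for left 30 min replicate 3, against 1.31 to 1.78 on the other 15 arrays. All 6 lung markers checked (Sftpc, Sftpb, Sftpa1, Ager, Scgb1a1 and Aqp5) were measured and passed the filter. The summed signal of 7 measured neutrophil markers (12 listed) ran from 1671 to 3905 in controls and from 5270 to 18356 in the 12 operated lungs, with 3 of the 6 markers tested higher in each operated group and 1 lower in every group but right 3 h. The part of these cells in the results was not tested.

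**Figure D1:**
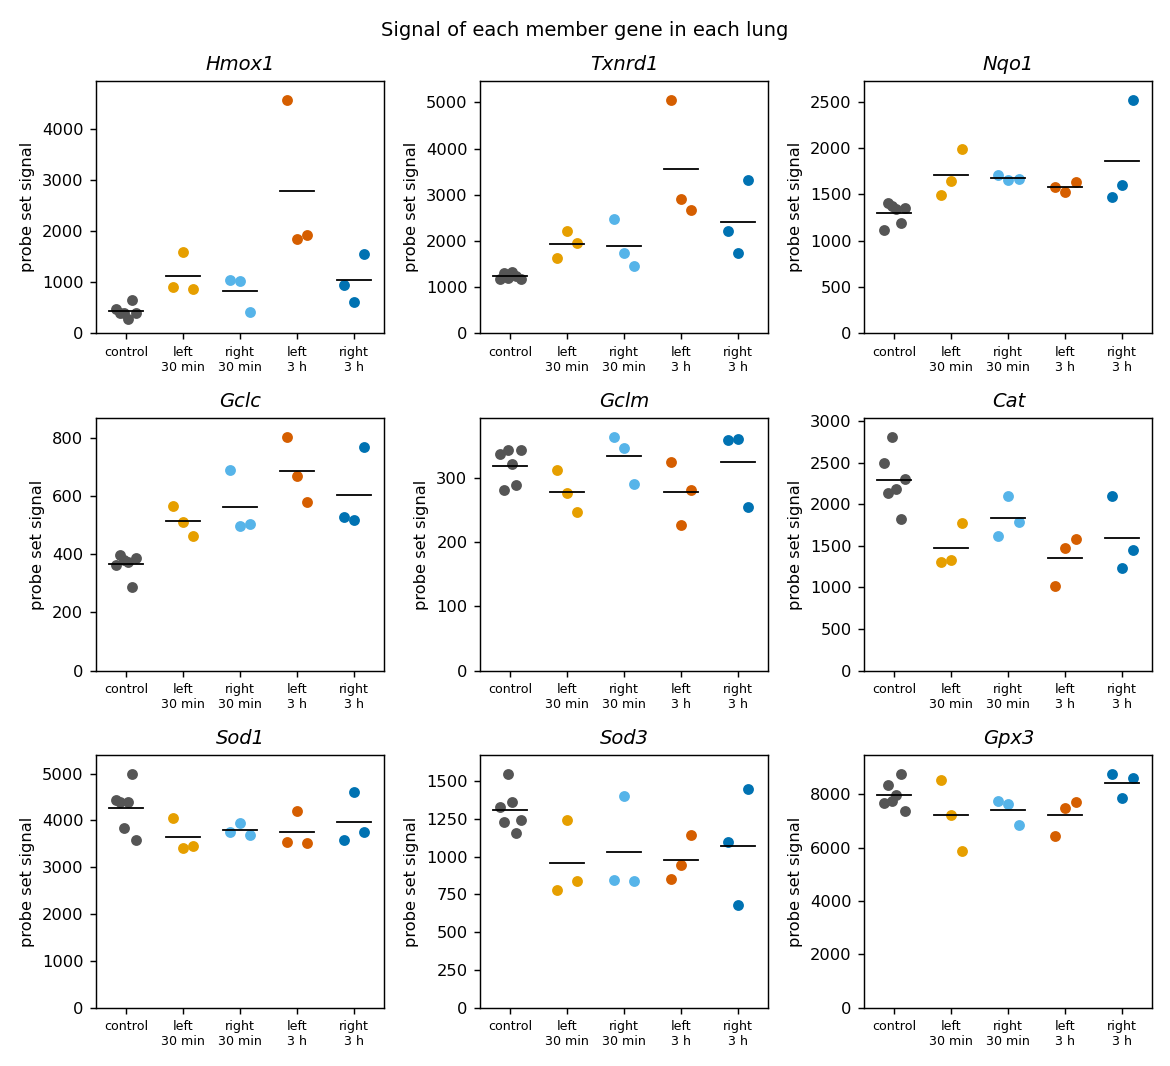
Probe set signal (linear scale, from 0) of each of the 9 measured genes in each of the 18 lungs, by group; each point is 1 lung and each line a group mean. Hmox1 and Txnrd1 are highest in the left 3 h group, Cat lies lower in left lungs than in every control, and Gclm, Sod1 and Gpx3 overlap the controls in all groups.

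Hmox1, Txnrd1 and Gclc rose in the clamped left lung at both times, and Cat fell. Against control, the left lungs had 3 of 9 genes called higher and 1 called lower at 30 min, where 8.64% of all genes tested were called higher and 9.52% lower. At 3 h they again had 3 of 9 called higher and 1 lower, against 13.5% and 24.1% of all genes. The median difference over the 9 genes was -0.16 at 30 min and -0.15 at 3 h, against -0.06 and -0.13 over all genes; the list holds genes that went both ways. Without the 3 arrays of highest actin ratio, the only left lung at 30 min is replicate 2. The calls of Txnrd1, Gclc and Cat at 30 min were then lost. Their differences were 0.82, 0.46 and -0.76, about as large as with all arrays or larger. The lone lung was assumed to vary like the other groups. Replicate 2 had the highest Txnrd1 signal of the 3 left lungs at 30 min, and the highest for Hmox1 (1592 against 905 and 862). The Hmox1 call was lost without replicate 2. In this fit the choice of lung and RNA integrity cannot be told apart. In the left lung at 3 h the median probe set was itself at -0.12, and differences there are to be read relative to it.

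Unclamped right lungs had fewer calls at 30 min and more at 3 h. At 30 min, 1 of 9 genes was called higher and none lower, beside 5.93% and 6.33% of all genes. An unadjusted limma p under 0.05 was reached by 4 of the 9, beside 2113 of all 7728 genes. At 3 h, 4 of 9 were called higher and 1 lower, beside 7.75% and 12.6%. The medians over the 9 genes were 0.06 and 0.08, against -0.04 and -0.05 over all genes. The 4 comparisons share the 6 control arrays.

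**Figure D2:**
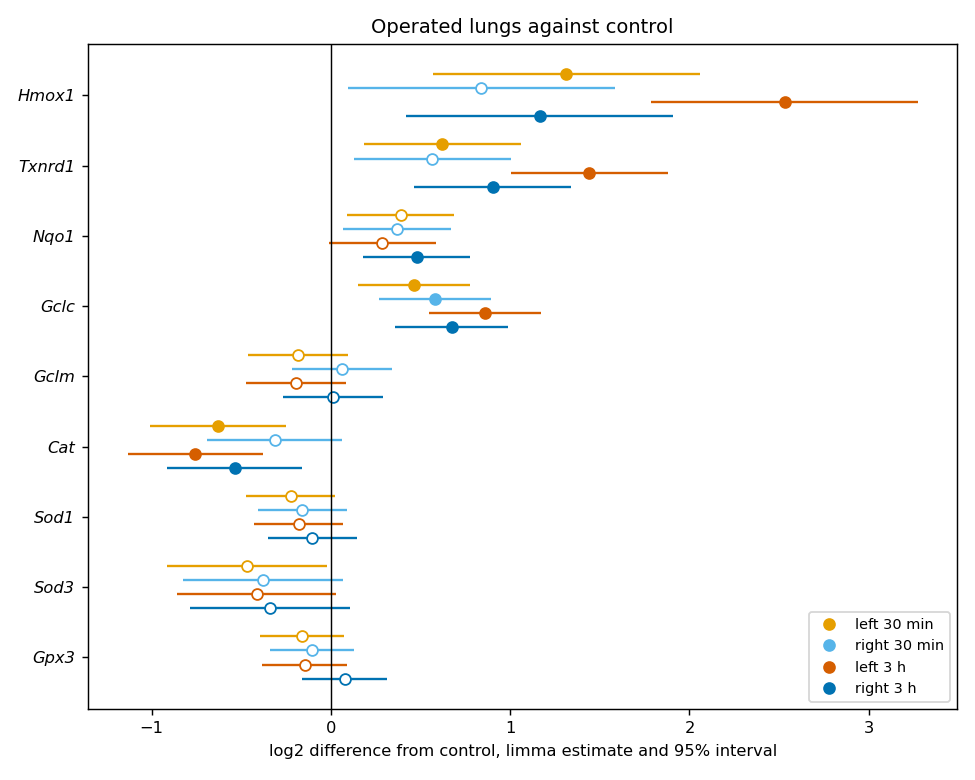
Log2 difference of each gene from control (x axis) in the 4 operated groups, with its 95% interval; filled points passed the test at an adjusted p under 0.05 and open points did not. Hmox1 at 2.53 and Txnrd1 at 1.44 in left lungs at 3 h lie farthest to the right, and Cat at -0.76 farthest to the left.

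Hmox1 encodes the inducible haem oxygenase, which splits haem into biliverdin, carbon monoxide and iron. Its signal in controls ran from 275 to 646 with a median of 396. Left lungs at 30 min gave 905, 1592 and 862, and left lungs at 3 h gave 4574, 1844 and 1926. Every left lung exceeded every control, and replicate 1 at 3 h was far above the other 2. Right lungs gave 1038, 1026 and 420 at 30 min and 946, 611 and 1559 at 3 h, and in both right groups 1 lung lay within the control range. The gene rose by 1.31 ± 0.35 (SE, 2.49-fold, limma adjusted p = 0.0144) in left lungs at 30 min and by 2.53 ± 0.35 (5.78-fold, limma adjusted p = 6.12e-05) at 3 h. It also rose in right lungs at 3 h, by 1.16 ± 0.35 (2.24-fold, limma adjusted p = 0.0265). The difference in right lungs at 30 min was 0.84 ± 0.35 (adjusted p = 0.127) and did not pass. The left 30 min call was lost without left 30 min replicate 2, and the right 3 h call without control replicate 4, right 3 h replicate 1 or right 3 h replicate 3. Right 30 min replicate 3, the lowest operated lung and 1 of the 3 with a high actin ratio, held the right 30 min value down: without it the difference was 1.25 ± 0.37 (limma adjusted p = 0.0361).

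Txnrd1 encodes the cytosolic thioredoxin reductase, which uses NADPH to keep thioredoxin reduced. In controls its signal lay within 1183 to 1323, the narrow spread of 61.0 (SD) around 1239. All 12 operated lungs lay above that range: 1636, 2205 and 1953 in left lungs at 30 min, 5055, 2913 and 2679 at 3 h, 2472, 1738 and 1459 in right lungs at 30 min, and 2217, 1731 and 3311 at 3 h. The gene rose in left lungs by 0.62 ± 0.21 (1.54-fold, limma adjusted p = 0.0443) at 30 min and by 1.44 ± 0.21 (2.72-fold, limma adjusted p = 8.26e-05) at 3 h. Right lungs at 3 h rose by 0.90 ± 0.21 (1.87-fold, limma adjusted p = 0.0059), and right lungs at 30 min, at 0.57 ± 0.21 (adjusted p = 0.0821), did not pass, though they did in a fit of only the groups compared (limma adjusted p = 0.0205) and with the actin ratio as a covariate (limma adjusted p = 0.0389). The left 30 min call was lost on leaving out any 1 of the 9 arrays compared, and the right 3 h call without right 3 h replicate 3.

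A dimmer probe set of Txnrd1, with 410 to 443 in controls, gave 434, 838 and 666 in left lungs at 30 min, followed at 3 h by 2455, 1229 and 1201. It did not pass at 30 min (0.50 ± 0.27, adjusted p = 0.202) and rose at 3 h by 1.77 ± 0.27 (3.41-fold, limma adjusted p = 0.000127). In right lungs it gave 890, 611 and 377 at 30 min and 1258, 683 and 1364 at 3 h, a rise of 1.24 ± 0.27 (2.36-fold, limma adjusted p = 0.00408) at the later time. The probe sets differ in the call at left 30 min only, among the 4 comparisons with control.

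Gclc and Gclm encode the catalytic and the modifier subunit of glutamate-cysteine ligase, the rate-limiting enzyme of glutathione synthesis. Gclc had 288 to 399 in controls. Left lungs gave 564, 510 and 462 at 30 min and 803, 669 and 580 at 3 h, and right lungs gave 688, 496 and 503 at 30 min and 526, 517 and 766 at 3 h. No operated lung overlapped the controls. Gclc was the only 1 of the 9 genes called in all 4 comparisons with control: it rose by 0.46 ± 0.15 (1.38-fold, limma adjusted p = 0.0356) and 0.86 ± 0.15 (1.81-fold, limma adjusted p = 0.000369) in left lungs, and by 0.58 ± 0.15 (limma adjusted p = 0.0163) and 0.67 ± 0.15 (1.59-fold, limma adjusted p = 0.00435) in right lungs. The left 30 min call was lost without control replicate 1, 4 or 5 or left 30 min replicate 1 or 2, and the right 30 min call without right 30 min replicate 1.

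The other Gclc probe set was dimmer, with 121 to 260 in controls, and passed at 3 h only. It rose by 1.24 ± 0.30 (2.37-fold, limma adjusted p = 0.00424) in left lungs and by 1.22 ± 0.30 (2.34-fold, limma adjusted p = 0.00869) in right lungs. At 30 min its differences were 0.25 ± 0.30 (adjusted p = 0.596) on the left and 0.27 ± 0.30 (adjusted p = 0.598) on the right, with arrays inside the control range in both groups. Right 30 min lungs also had the highest red cell markers: the summed signal of the 5 measured (of 10 listed) was 17483 to 25543, against 13219 to 17562 in controls. Of the 5 markers, 3 were called higher there, where 5.93% of all genes were higher. With the mean of those markers as a covariate, the Gclc call at right 30 min was lost, and 14 genes in all were called there instead of 947. That mean (log2) was 10.28 to 10.90 in right 30 min lungs and at most 10.25 in any other lung. The covariate and this group can therefore hardly be told apart, here and for every right 30 min difference with that covariate given below. The part of red cells was not tested.

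Gclm stayed close to control throughout. Its signal was 281 to 343 in controls, 313, 277 and 247 in left lungs at 30 min, followed at 3 h by 326, 227 and 281. Right lungs gave 365, 348 and 291 at 30 min and 359, 362 and 255 at 3 h. All 4 operated groups overlapped the controls, and none of the 4 differences passed. The difference in left lungs at 3 h was -0.19 with a 95% interval from -0.47 to 0.09, while that of Gclc was 0.86. The difference between the 2 subunits was not tested.

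Nqo1 encodes a quinone reductase often used as a readout of NRF2. Controls ran from 1113 to 1404, and all 12 operated lungs lay above them. Left lungs gave 1499, 1650 and 1991 at 30 min and 1584, 1532 and 1634 at 3 h, and right lungs gave 1713, 1651 and 1667 at 30 min and 1471, 1597 and 2522 at 3 h. Only right lungs at 3 h passed, where Nqo1 rose by 0.48 ± 0.14 (1.39-fold, limma adjusted p = 0.024), a call lost without right 3 h replicate 3, the highest of the 18 arrays, and with the red cell covariate (0.34, limma adjusted p = 0.177). The other differences were 0.39 ± 0.14 in left lungs at 30 min (adjusted p = 0.0618), 0.29 ± 0.14 in left lungs at 3 h (adjusted p = 0.122) and 0.37 ± 0.14 in right lungs at 30 min (adjusted p = 0.0952). With each array centred on its median, both left differences passed, at 0.48 (limma adjusted p = 0.0345) and 0.45 (limma adjusted p = 0.0296). All 3 passed in a fit of only the groups compared (limma adjusted p = 0.0252, 0.0375 and 0.0256).

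Cat encodes catalase, the peroxisomal enzyme that breaks down hydrogen peroxide. Controls ran from 1820 to 2812 with a median of 2242. Left lungs gave 1308, 1335 and 1777 at 30 min and 1017, 1475 and 1579 at 3 h, all below every control. Right lungs gave 1614, 2102 and 1787 at 30 min and 2100, 1239 and 1454 at 3 h, so that 1 lung in each right group lay within the control range. Cat fell by 0.63 ± 0.18 (1.55-fold, limma adjusted p = 0.0195) in left lungs at 30 min, by 0.76 ± 0.18 (1.69-fold, limma adjusted p = 0.00349) in left lungs at 3 h and by 0.54 ± 0.18 (1.45-fold, limma adjusted p = 0.0409) in right lungs at 3 h. The right 30 min difference was -0.31 ± 0.18 (adjusted p = 0.265). The right 3 h call was kept on leaving out control replicate 5 or right 3 h replicate 1 and lost on leaving out any other of the 9 arrays compared. The left 30 min call was lost without left 30 min replicate 1 or 2. Centring each array on its median also ended the right 3 h call.

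Catalase is expressed by alveolar type II cells among others. Markers of those cells (10 of 11 listed measured, all 10 tested) moved with Cat in left lungs at 3 h: their summed signal was 40288 to 55459, against 62881 to 67220 in controls. Of the 10 markers, 6 were called lower there and none higher, where 24.1% of all genes were lower. In left lungs at 30 min the sum was 53011 to 64865 with 1 marker lower, in right lungs at 30 min 56616 to 60151 with 1 lower, and in right lungs at 3 h 60109 to 73260 with 2 lower. Of all genes, 9.52%, 6.33% and 12.6% were called lower in those groups, in that order. The part of these cells in the Cat result was not tested.

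The superoxide dismutases Sod1, in the cytosol, and Sod3, outside the cell, were called in none of the 9 comparisons. Sod1 ran from 3584 to 4990 in controls and from 3411 to 4603 in operated lungs, overlapping in every group. Its difference in left lungs at 3 h was -0.18, with an interval from -0.43 to 0.07, and it passed there only after quantile normalization (-0.35, limma adjusted p = 0.0227). Sod3 ran from 1155 to 1546 in controls. Left lungs gave 781, 1245 and 838 at 30 min and 850, 941 and 1145 at 3 h, the later group lying below every control. Right lungs gave 844, 1401 and 836 at 30 min and 1093, 678 and 1448 at 3 h. The left differences of Sod3, -0.47 ± 0.21 (adjusted p = 0.128) and -0.41 ± 0.21 (adjusted p = 0.133), did not pass. Both passed in a fit of only the groups compared (limma adjusted p = 0.0331 and 0.0177).

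Gpx3, the secreted glutathione peroxidase of plasma, gave 7394 to 8746 in controls and 5885 to 8762 in operated lungs. All 4 operated groups overlapped the controls, and the 4 differences lay between -0.16 and 0.08. The probe set shared by Prdx1l1 and Prdx1, the latter a peroxiredoxin that reduces peroxides with electrons from thioredoxin, gave 3694 to 4126 in controls, 3261 to 4532 in left lungs at 3 h and 3939 to 4650 in right lungs at 3 h. Its largest difference from control was -0.16 ± 0.12 in left lungs at 30 min (adjusted p = 0.384).

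Ordered by group mean of the log2 values, Hmox1 ran from control through right 30 min, right 3 h and left 30 min to left 3 h, and only the last of these did not overlap its neighbour. Txnrd1 ran from control through right 30 min, left 30 min and right 3 h to left 3 h, with a gap between ranges only after control. Gclc followed the order control, left 30 min, right 30 min, right 3 h and left 3 h, again with a gap only after control. Nqo1 had another order, with left 3 h next to control, then right 30 min, left 30 min and right 3 h. Cat ran the other way, from left 3 h at the lowest through left 30 min, right 3 h and right 30 min to control, with every neighbour overlapping.

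Clamped and unclamped lungs were compared directly at each time. At 30 min none of the 9 genes differed by limma between left and right. Of all genes, 0.0129% were called higher in the left lung and 0.0388% lower. None of the 9 had an unadjusted p under 0.05, beside 644 of all 7728 genes. The Hmox1 difference was 0.48 ± 0.41 with an interval from -0.38 to 1.33, that of Txnrd1 0.06 (-0.45 to 0.56) and that of Cat -0.32 (-0.75 to 0.12). These intervals are wide, and do not show that the lungs were alike.

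At 3 h none of the 9 genes passed in limma. Of all genes, 1.75% were called higher in the left lung and 0.621% lower. Hmox1 and Txnrd1 had an unadjusted p under 0.05, as did 1401 of all 7728 genes. The 3 left lungs had 4574, 1844 and 1926 for Hmox1, all above the 946, 611 and 1559 of the right lungs. That difference was 1.37 ± 0.41 (interval 0.51 to 2.23, 2.58-fold) with a limma adjusted p of 0.0884. Without right 3 h replicate 3, the highest of the right lungs, it was 1.70 ± 0.43 and passed (limma adjusted p = 0.0369). Txnrd1 differed by 0.54 ± 0.24 (0.03 to 1.05, limma adjusted p = 0.253), Gclc by 0.19 (-0.18 to 0.55) and Cat by -0.22 (-0.66 to 0.21). Gpx3 was lower in every left lung than in every right lung, by -0.22 (-0.50 to 0.05), and did not pass (adjusted p = 0.385).

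**Figure D3:**
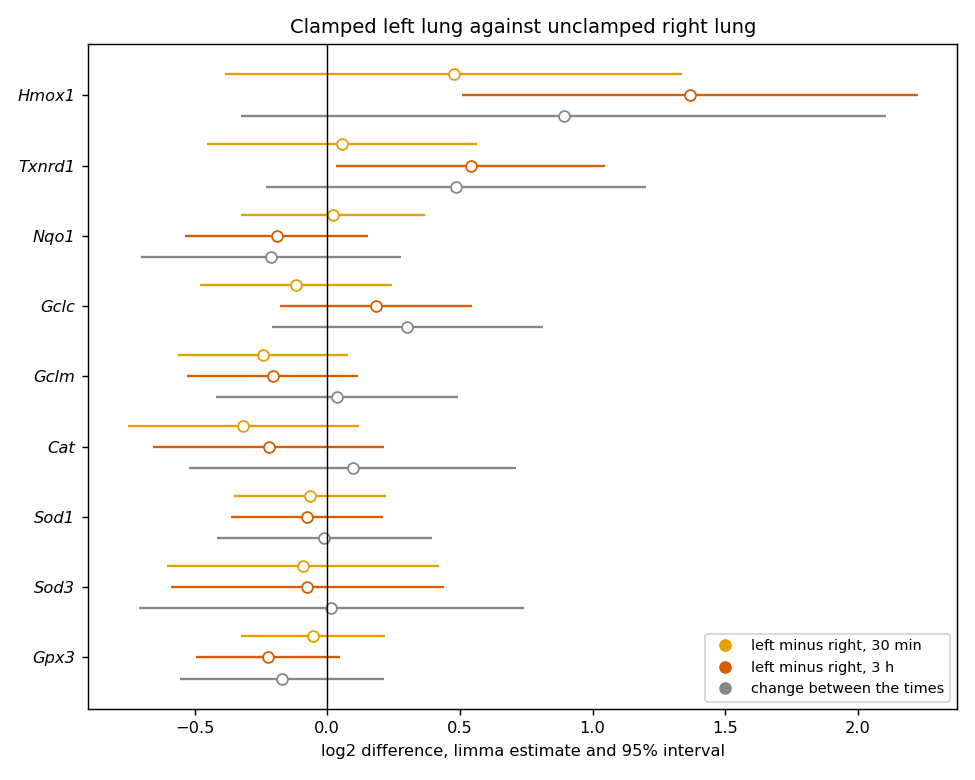
Log2 difference between left (clamped) and right (unclamped) lungs at 30 min and at 3 h, and the change of that difference between the times, with 95% intervals; open points did not pass the test. No gene passed; the Hmox1 interval at 3 h, from 0.51 to 2.23, and the Txnrd1 interval, from 0.03 to 1.05, lie above 0 before adjustment over all probe sets.

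Between the times, left lungs at 3 h were above left lungs at 30 min in all 3 arrays for Hmox1, Txnrd1 and Gclc. The share of all genes that separated in this way was not counted, so little rests on it. None of the 9 genes passed in limma, where 1.23% of all genes were called higher at 3 h and 1.84% lower. Hmox1, Txnrd1 and Gclc had an unadjusted p under 0.05, as did 1644 of all 7728 genes. The differences were 1.22 ± 0.41 for Hmox1 (limma adjusted p = 0.0975), 0.82 ± 0.24 for Txnrd1 (limma adjusted p = 0.0656) and 0.39 for Gclc (limma adjusted p = 0.19). The dimmer Txnrd1 probe set passed, at 1.27 ± 0.31 (limma adjusted p = 0.0354). Without left 3 h replicate 3 the brighter probe set passed too (0.99, limma adjusted p = 0.0319).

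In right lungs none of the 9 genes differed between the times by limma, and 0.0129% of all genes were called higher and 0.181% lower. None of the 9 had an unadjusted p under 0.05, beside 957 of all 7728 genes. The change of the left to right difference from 30 min to 3 h was called for none of the 9 either. Of all genes, 0.207% were called higher and 0.0259% lower. No unadjusted p of the 9 was under 0.05, beside 546 of all 7728 genes. For Hmox1 that change was 0.89 ± 0.58 (-0.32 to 2.11, limma adjusted p = 0.77), and for Txnrd1 0.48 (-0.23 to 1.20). So a widening of the gap between the lungs was not shown for any of these genes.

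The regulators of the pathway were listed with the wider set of 144 antioxidant genes, of which 100 could be tested. Nfe2l2, which encodes NRF2, ran from 1390 to 1665 in controls and gave 2515, 2048 and 2160 in left lungs at 3 h, a rise of 0.55 ± 0.17 (1.46-fold, limma adjusted p = 0.0171). Its differences elsewhere were 0.23 in left lungs at 30 min, 0.22 in right lungs at 30 min and 0.27 in right lungs at 3 h, and did not pass. Keap1, its inhibitor, ran from 429 to 608 in controls and gave 321, 360 and 369 in left lungs at 3 h, where it fell by 0.50 ± 0.14 (1.42-fold, limma adjusted p = 0.0088). Neither gene overlapped the controls in that group. Both calls were lost without left 3 h replicate 1. The Nfe2l2 call was also lost with the additive replicate block (0.56, limma adjusted p = 0.0649), and the Keap1 call with arrays centred on their median. The differences of Keap1 in the other 3 groups, -0.04 in left lungs at 30 min, -0.06 in right lungs at 30 min and -0.23 in right lungs at 3 h, did not pass. With the median of its probe sets in place of the brightest, Keap1 was lower by -0.40 in left lungs at 30 min (limma adjusted p = 0.00661) and by -0.34 in right lungs at 30 min (limma adjusted p = 0.0226). Neither gene differed between left and right at 3 h (0.28, adjusted p = 0.476, and -0.27, adjusted p = 0.387).

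Mafk, a small MAF protein and partner of NRF2, rose in all 4 operated groups. Controls ran from 734 to 911, while left lungs gave 1205, 1484 and 1317 at 30 min and 2292, 1765 and 1785 at 3 h. Right lungs gave 1379, 1114 and 1141 at 30 min and 948, 1037 and 1362 at 3 h, so that no operated lung overlapped the controls. The rises were 0.68 ± 0.13 (limma adjusted p = 0.0017) and 1.21 ± 0.13 (2.32-fold, limma adjusted p = 5.71e-06) on the left, and 0.54 ± 0.13 (limma adjusted p = 0.0119) and 0.42 ± 0.13 (limma adjusted p = 0.0309) on the right. The right 30 min call was lost without right 30 min replicate 1, and the right 3 h call without control replicate 1, 2 or 6 or right 3 h replicate 3. With the red cell covariate both right differences failed to pass, at 0.35 (limma adjusted p = 0.63) and 0.34 (limma adjusted p = 0.158). Mafk was also higher in left than in right lungs at 3 h, by 0.80 ± 0.15 (1.74-fold, limma adjusted p = 0.0112), a call lost without left 3 h replicate 1 or right 3 h replicate 1. It was lost too with same-numbered left and right lungs as a fixed block (adjusted p = 0.196), a fit added after the data were seen. Same numbers may not pair lungs at 3 h. The call was also lost in a fit of the 6 arrays compared (adjusted p = 0.203). Mafg, another small MAF protein, rose in left lungs at 30 min by 0.64 ± 0.12 (1.56-fold, limma adjusted p = 0.00163). It was also called higher in left lungs at 3 h (0.46) and in right lungs at 30 min (0.45). Those 2 calls were lost with the additive replicate block, the first also without left 3 h replicate 1. The second was also lost with the red cell covariate and without right 30 min replicate 1 or 2.

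Srxn1, sulfiredoxin, which repairs overoxidised peroxiredoxins, had the largest fold of the genes named here. It was low in controls, 43.7 to 183, and gave 457, 902 and 392 in left lungs at 30 min, followed at 3 h by 1242, 914 and 961. It rose by 1.97 ± 0.50 (3.92-fold, limma adjusted p = 0.0106) and by 2.85 ± 0.50 (7.23-fold, limma adjusted p = 0.000413). The first of these calls was lost without left 30 min replicate 2. Right lungs gave 520, 312 and 35.9 at 30 min and 244, 250 and 501 at 3 h, and neither right difference passed (0.62, adjusted p = 0.449, and 1.22 ± 0.50, adjusted p = 0.0931). The left to right difference at 3 h, 1.64 ± 0.58, did not pass (adjusted p = 0.149). Right 30 min replicate 3, at 35.9, was the lowest of all operated lungs, and without it the right 30 min difference was 1.55 ± 0.37 and passed (limma adjusted p = 0.0145). Without the 3 arrays of highest actin ratio, of which it is 1, the right 3 h difference (limma adjusted p = 0.012) and the left to right difference at 3 h (limma adjusted p = 0.0278) passed as well. The right 3 h difference also passed in a fit of only the groups compared (limma adjusted p = 0.0191) and with the actin ratio as a covariate (limma adjusted p = 0.0314).

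**Figure D4:**
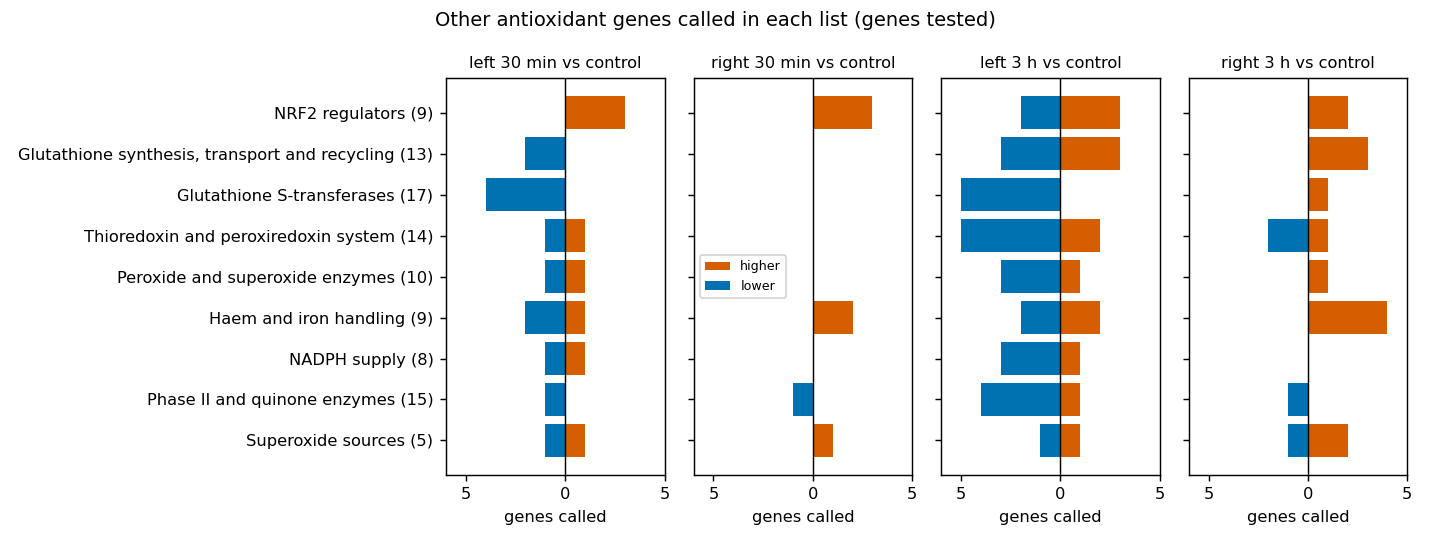
Number of genes called higher (to the right) and lower (to the left) against control in each of 9 lists of other antioxidant genes, in the 4 operated groups; the number tested in each list is in brackets. In left lungs at 3 h, 14 genes were higher and 28 lower, and in right lungs at 3 h, 14 were higher and 4 lower.

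Over these 100 genes, 8 were called higher and 13 lower in left lungs at 30 min, 14 and 28 in left lungs at 3 h, 6 and 1 in right lungs at 30 min, and 14 and 4 in right lungs at 3 h. Over all genes the shares called higher and lower were 8.64% and 9.52%, 13.5% and 24.1%, 5.93% and 6.33%, and 7.75% and 12.6%, so the counts in left lungs were near those over all genes. The medians were -0.08, -0.15, -0.03 and 0.08, beside -0.06, -0.13, -0.04 and -0.05 over all genes. Glutathione S-transferases, which couple glutathione to electrophiles, had 17 genes tested: 4 fell and none rose in left lungs at 30 min, 5 fell and none rose at 3 h (9.52% and 24.1% of all genes were lower), and right lungs had no call at 30 min and 1 rise at 3 h. Mgst3, a microsomal transferase, fell in left lungs at 30 min by 0.56 ± 0.13 (1.48-fold, limma adjusted p = 0.00531). At 3 h the 5 were Gstm1, Gstm2, Gstt3, Gstk1 and Mgst3, with differences between -0.56 and -0.46. Gstm1, Gstm2, Gstt3 and Gstk1 were named after their values were seen.

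Enzymes that supply NADPH, on which thioredoxin and glutathione reductase depend, had 8 genes tested. In left lungs at 3 h, where 24.1% of all genes were lower and 13.5% higher, 3 of the 8 fell, Idh1, Idh2 and Nnt, and 1 rose, Hk2. Nnt, the mitochondrial transhydrogenase, ran from 1321 to 1597 in controls and gave 743, 863 and 981, a fall of 0.74 ± 0.13 (1.67-fold, limma adjusted p = 0.000541). Idh1 and Idh2, the NADP-dependent isocitrate dehydrogenases, had -0.84 and -0.90, and hexokinase Hk2, which feeds glucose 6-phosphate to the pentose phosphate pathway and to glycolysis, had 0.75. Idh1, Idh2 and Hk2 were named after their values were seen. Right lungs had no call in that list at either time.

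Sod2, the mitochondrial superoxide dismutase, differed from Sod1 and Sod3. It ran from 891 to 1045 in controls and gave 6254, 3227 and 2517 in left lungs at 3 h and 2597, 1893 and 3489 in right lungs at 3 h, every array above the controls. It rose by 1.88 ± 0.27 (3.67-fold, limma adjusted p = 8.97e-05) on the left and by 1.36 ± 0.27 (2.57-fold, limma adjusted p = 0.00233) on the right. At 30 min Sod2 was called higher in left lungs (0.81), a call lost on leaving out any 1 of the 9 arrays compared. Of the 10 other peroxide and superoxide enzymes tested, Sod2 was the only 1 called higher in either 3 h group. In left lungs at 3 h, 3 of the 10 were called lower. Over all genes, 13.5% were higher and 24.1% lower in left lungs at 3 h. In right lungs at 3 h the shares were 7.75% and 12.6%. Park7, a peroxide-sensing protein, was called lower in left lungs at 3 h (-0.53), a call kept in every setting tried. It also fell in left lungs at 30 min by 0.47 ± 0.11 (1.39-fold, limma adjusted p = 0.00702). Without the 3 arrays of highest actin ratio, which leaves 1 left lung at that time, the differences of Park7, Mgst3 and Mafg were -0.57, -0.42 and 0.63, and their calls were lost.

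The following counts in left lungs at 3 h stand beside 13.5% of all genes called higher and 24.1% called lower. In the thioredoxin and peroxiredoxin list, 14 genes tested, 2 rose and 5 fell in left lungs at 3 h, among the risen Srxn1. In the list of glutathione synthesis, transport and recycling, 13 genes tested, 3 rose and 3 fell in left lungs at 3 h, and 3 rose and none fell in right lungs at 3 h, where 7.75% of all genes were higher. Slc3a2, the heavy chain of the cystine transporter, rose in both, by 0.65 ± 0.10 (1.57-fold, limma adjusted p = 0.000115) and 0.57 ± 0.10 (1.48-fold, limma adjusted p = 0.00073). Phase II and quinone enzymes, 15 tested, had 1 rise and 4 falls in left lungs at 3 h. Akr7a2, an aldehyde reductase of that list, fell in all 4 operated groups. Its difference was -0.76 ± 0.15 (1.69-fold, limma adjusted p = 0.00124) in left lungs at 3 h, a call kept in every setting that tested the gene, and -0.58 (limma adjusted p = 0.0132) in left lungs at 30 min, lost without left 30 min replicate 2. In right lungs it was -0.72 at 30 min (limma adjusted p = 0.00531) and -0.48 at 3 h (limma adjusted p = 0.0352). The right 30 min call was lost with the red cell covariate (-0.78, limma adjusted p = 0.332), and the right 3 h call with that covariate, with no filter, with quantile normalization or median centring, and without control replicate 3 or 5 or right 3 h replicate 1 or 3.

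Between left and right lungs at 3 h, 1 of the 100 genes was higher and 3 were lower, where 1.75% of all genes were called higher and 0.621% lower. Mafk was the higher. Txnrd2, the mitochondrial thioredoxin reductase, was lower by 1.56-fold (-0.64, limma adjusted p = 0.0152), Tfrc by 1.82-fold (-0.87, limma adjusted p = 0.0258) and glutathione reductase, Gsr, by 1.68-fold (-0.74, limma adjusted p = 0.049). These calls rest on single arrays: Txnrd2 was lost without left 3 h replicate 1 or right 3 h replicate 2, Tfrc without replicate 1 or 3 of either side, and Gsr without left 3 h replicate 1 or 3 or right 3 h replicate 1 or 2. With the fixed block of same-numbered lungs the 3 were lost as well, and 12 genes of all were called instead of 183. Same numbers may not pair lungs at 3 h, so little rests on that block.

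The haem and iron handling list had 9 genes tested. In the left 30 min group 1 rose and 2 fell, beside 8.64% higher and 9.52% lower over all genes. In the left 3 h group 2 rose and 2 fell, beside 13.5% and 24.1%. The right 30 min group had 2 rises and no fall, beside 5.93% and 6.33%. The right 3 h group had 4 rises and no fall, beside 7.75% and 12.6%. Tfrc, the transferrin receptor, ran from 596 to 737 in controls. Left lungs gave 1262, 1301 and 1240 at 30 min and 1147, 948 and 792 at 3 h. Right lungs gave 1837, 1463 and 994 at 30 min and 1657, 1487 and 2198 at 3 h. Every operated lung lay above the controls. Tfrc rose by 0.88 ± 0.17 (1.84-fold, limma adjusted p = 0.00149) in left lungs at 30 min and by 0.48 at 3 h. In right lungs it rose by 1.01 ± 0.17 (2.01-fold, limma adjusted p = 0.000725) at 30 min and by 1.34 ± 0.17 (2.54-fold, limma adjusted p = 3.46e-05) at 3 h. The left 3 h call was lost with the additive replicate block or the median of its probe sets. It was also lost without control replicate 3 or 4 or left 3 h replicate 1 or 2. With the red cell markers as a covariate the right 30 min difference was 1.38 ± 0.31 and did not pass (limma adjusted p = 0.0903). Fech, the last enzyme of haem synthesis, rose in right lungs at 30 min by 1.43 ± 0.37 (2.70-fold, limma adjusted p = 0.0173), and had the opposite sign, -0.45, with that covariate. Its call was also lost without right 30 min replicate 3. Hamp, hepcidin, gave 594, 713 and 591 in right lungs at 3 h against 96.0 to 286 in controls, a rise of 1.56 ± 0.29 (2.94-fold, limma adjusted p = 0.00116). Left lungs at 3 h gave 407, 344 and 239 and did not pass in the fit reported. That difference passed with quantile normalization (0.78, limma adjusted p = 0.0368) and median centring (0.81, limma adjusted p = 0.0386).

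Of 5 superoxide sources tested, 1 rose and 1 fell in left lungs at each time. In the left 30 min group, 8.64% of all genes were called higher and 9.52% lower, and in the left 3 h group 13.5% and 24.1%. The right 30 min group had 1 rise and no fall, beside 5.93% and 6.33% of all genes. The right 3 h group had 2 rises and 1 fall, beside 7.75% and 12.6%. Xdh, xanthine oxidoreductase, rose in all 4 operated groups. Controls ran from 1732 to 2638, and the 12 operated lungs from 3330 to 6492, with no overlap. The rises were 1.27 ± 0.19 (2.41-fold, limma adjusted p = 0.000249) and 1.21 ± 0.19 (2.31-fold, limma adjusted p = 0.000186) in left lungs, and in right lungs 2.00-fold (SE 0.19 on the log2 scale, limma adjusted p = 0.0026) at 30 min and 1.26 ± 0.19 (2.39-fold, limma adjusted p = 0.000266) at 3 h. With the red cell markers as a covariate the right 30 min difference was 0.54 ± 0.36 and did not pass (limma adjusted p = 0.596). Left and right lungs did not differ in Xdh beyond the error at 30 min (0.26 ± 0.22) or at 3 h (-0.05 ± 0.22). Cybb, the catalytic subunit of the phagocyte NADPH oxidase, gave 652, 527 and 486 in right lungs at 3 h against 204 to 276 in controls, a rise of 1.13 ± 0.19 (2.19-fold, limma adjusted p = 0.000502). Left lungs at 3 h gave 379, 346 and 295, also above every control, and did not pass in the fit reported. That difference passed with quantile normalization (0.61, limma adjusted p = 0.0182) and median centring (0.63, limma adjusted p = 0.0188). It also passed in a fit of only the groups compared (0.46, limma adjusted p = 0.0085). Of 7 macrophage markers tested, 3 were called higher in right lungs at 3 h and none lower, where 7.75% of all genes were higher. The mean signals of Cd68 (894 against 936 in controls) and Csf1r (1269 against 1627) were lower than in controls. Summed signals of the 7 were 18240 to 23789 against 16656 to 19826 in controls, ranges that overlap. The part of these cells in the Cybb result was not tested.

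Across the 18 arrays, the log2 values of Hmox1, Txnrd1 and Gclc varied together, with Pearson correlations of 0.93 for Hmox1 and Txnrd1, 0.90 for Txnrd1 and Gclc and 0.79 for Hmox1 and Gclc. Nqo1 correlated with Gclc at 0.70, with Txnrd1 at 0.61 and with Hmox1 at 0.47. Cat ran opposite to all 3, at -0.74 with Hmox1, -0.75 with Txnrd1 and -0.72 with Gclc. These values are descriptions: the arrays fall into 5 groups, so the correlations hold the differences between groups as well as the spread within them. Of all 7728 genes, those most like Hmox1 over the 18 arrays were Hilpda (0.951), Snx18 (0.951), Cflar (0.939) and Ripk1 (0.937). Those most like Cat were Fgfr2 (0.905), Abhd14b (0.904), Igfbp5 (0.902) and Nkx2-1 (0.883), the last of them 1 of the type II cell markers used above. In left lungs at 3 h these 4 had differences from control of -1.17, -0.62, -1.62 and -1.36, against -0.76 for Cat.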

How the data were processed

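Total RNA of 18 frozen lungs was hybridised as labelled cRNA to Affymetrix rat 230A arrays, per the labels' protocols. The deposited values are linear probe set intensity (signal) from MAS5, per the submitters' processing notes, and the 2% trimmed mean of every array was found at 499.9, so the scaling was kept. The study's own analysis used GeneSpring 7.2, per the design text. Brightness scaled per array cannot show a change of total RNA, and the number of arrays limits the precision. Replicates are lungs of separate rats.

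Signals were taken as log2(signal + 25). Probe sets with at least 3 arrays above the 40th percentile of all signals (173.6) were tested. Probe sets with 1 symbol (12783) were named, those with several (312) or none (2771) were not, from the platform annotation of 2016. limma 3.58.1 in R 4.3.3 (lmFit, eBayes) was fitted with a mean for each of the 5 groups on 18 arrays. Two-sided p-values were adjusted (Benjamini-Hochberg) over probe sets within each of 9 comparisons, and the procedure was tested on simulated data. All listed genes were named in each comparison, as were Nfe2l2, Keap1 and up to 6 other pathway genes called per comparison, by smallest adjusted p, and the 4 genes most correlated with Hmox1 and with Cat. The genes and lists were chosen with earlier results of these data known. Left and right lungs came from rats of the same experiment, but the labels do not tie replicate numbers to rats. In the 30 min groups, deviations of same-numbered lungs correlated at 0.12, 0.31 and 0.15. In the 3 h groups the values were -0.17, 0.07 and -0.15. There, left 1 with right 3 gave 0.34, left 2 with right 1 gave 0.22 and left 3 with right 2 gave 0.16. The remaining differently numbered 3 h pairs lay from -0.24 to -0.02. Whether the numbers pair lungs is therefore doubtful, above all at 3 h. The fit reported used no replicate block, and the blocks among the alternatives used same numbers at both times. Alternatives covered pseudocount, filter, normalization, probe set choice, prior, arrays fitted, replicate block, actin ratio, red cell markers and leaving out each array.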

Additional observations from a re-analysis of the deposited data

Results flagged for a closer look

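In a group of 4 to 10 samples, a sample was looked at again where its gap to the nearest other sample was large for the range of the group. Of 12 probe set and control group combinations tested, 1 had such a sample, and chance gives about 1 in 20. Control replicate 5 had a signal of 287.6 on the brighter Gclc probe set, while the other 5 controls lay between 362.9 and 398.6. Without it the Gclc call in left lungs at 30 min was lost, and the calls in the other 3 operated groups were kept.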

How the results depend on the processing

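The calls of Hmox1, Txnrd1, Gclc and Cat in left lungs at 3 h were kept under all 14 other settings and on leaving out each array, with log2 differences from 2.11 to 2.76, 1.16 to 1.61, 0.74 to 0.97 and -0.88 to -0.57 on leaving 1 out. Calls in left lungs at 30 min numbered 4 of 9 genes. They numbered 2 with no filter, with the median of all probe sets, with the actin ratio as a covariate or with red cell markers as a covariate, 1 without the 3 arrays of highest actin ratio, and 0 to 3 on leaving out 1 array, but 5 with arrays centred on their median and 6 with only the groups compared. Those in left lungs at 3 h, also 4, numbered 5 with quantile normalization or median centring and 6 with only the groups compared. Calls in right lungs at 30 min, 1 in the fit reported, numbered 0 with the median of probe sets or the red cell covariate, 3 with only the groups compared or the actin covariate, 2 without the 3 arrays of highest actin ratio, and 0 to 2 on leaving out 1 array. Calls in right lungs at 3 h, 5 as reported, numbered 3 with the red cell covariate and 1 to 5 on leaving out 1 array. Left against right at 3 h ranged from 0 to 1 on leaving out 1 array, and left 3 h against 30 min from 0 to 1, with 1 also for the median of probe sets.

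With the replicate number as an additive replicate block over all arrays, 0 members were called in left lungs at 30 min, right lungs at 30 min and right lungs at 3 h, where the control numbers pair with no other lung. A random replicate block of same-numbered left and right lungs (consensus correlation 0.07) gave 4 calls in left lungs at 30 min, 4 at 3 h, 1 in right lungs at 30 min and 5 at 3 h, as reported. The fixed pair replicate block, chosen after seeing the data, gave 0 calls between left and right at 30 min and at 3 h and changed no call of these genes. Over all 9 genes, comparisons and settings, 1727 results stayed on their side of the threshold, 57 lost a call, 16 gained a call and no called difference reversed, while 87 differences that passed in neither fit had the other sign. Among the other pathway genes named, the Btrc difference in left lungs at 30 min, called higher, was -0.12 with the median of its probe sets, and that of Fech in right lungs at 30 min was -0.45 with the red cell covariate; the cause was not tested for these.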
